A study of Bos taurus with 14 samples.

Results

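The genes described here are the proteases of the cathepsin, plasminogen activator, matrix metalloprotease (MMP), ADAM and ADAMTS families and the inhibitors of the serpin, cystatin, TIMP, SPINK and TFPI families, measured in the mammary gland of dairy cows. They were chosen by gene symbol alone, which gave 56 of the 6697 symbols on the array. Of these, 26 were proteases and 21 were protease inhibitors. The other 9 share a name with these families but are not known to cut proteins or to block proteases: the urokinase receptor PLAUR, the collagen chaperone SERPINH1, SERPINF1, SERPINA7, SERPINA14, the ADAMTS-like matrix protein ADAMTSL4, ADAM2 and ADAM23, which lack a working catalytic site, and CSTF2, a factor that trims the ends of messenger RNA.

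Proteases and their inhibitors act as sets. Plasminogen activators (PLAU and PLAT) turn plasminogen into plasmin, the main protease of milk, and are held back by serpins such as SERPINE2, while SERPINF2 blocks plasmin itself. Cathepsins digest proteins in lysosomes, and the cysteine proteases among them are blocked by cystatins such as CST3. MMPs, ADAMs and ADAMTS enzymes cut matrix and cell-surface proteins and are blocked by the 4 TIMPs, and this balance is known for its part in the remodelling of the udder between lactations.

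The samples were mammary gland tissue from 14 Holstein-Friesian cows, 1 array of total RNA each, paired into 7 blocks (302 to 308). The 7 Omega cows received a basal diet with a concentrate that held linseed, rich in α-linolenic acid, and the 7 Control cows received the basal diet with a concentrate that held none. Feeding ran from 3 weeks before the expected calving to 6 weeks after it, and diets were allotted at random within a block. The parity label was 1 in 4 cows, the pairs of blocks 302 and 306, and 2 to 6 in the other 10, whereas the design text counts the youngest cows as second parity, so the labels are used here only as given. No further treatment or genetic change is recorded for either group, and the question was how linseed changes mammary transcripts around calving.

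Values were log2 intensities of 1 probe set per gene, and array medians lay between 5.70 and 5.76. LALBA, a milk protein gene made by secretory epithelium, lay between 14.50 and 14.60 in all 14 cows. This is close to the highest value on any array, 14.81, and whether the probe set was saturated was not tested. The Control cows of blocks 302 and 304 stood apart on the first principal component of all tested probe sets, which held 51.0% of the variance: they scored 43.7 and 46.4, against −18.1 to 10.8 in the other 12. Their poly-A control spikes, added to the RNA before labelling, averaged 6.41 and 6.18, against 6.75 to 7.41 in the other 12 arrays. The main results are therefore given with and without these cows or their blocks. Whole tissue was measured, so fewer cells of a type and less RNA per cell cannot be told apart.

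Cathepsins and TIMPs were bright enough to test, and most MMPs were dim. A probe set was tested where its mean over the 14 cows exceeded 4.59, the 30th percentile of all probe sets. This held for 39 of the 56 genes, or 17 of 26 proteases, 17 of 21 inhibitors and 5 of 9 others, beside 70.0% of all probe sets. All 11 cathepsins, both plasminogen activators, all 4 TIMPs and both cystatins (CST3 and CST6) passed, but of 8 MMPs only MMP23 did.

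The dim genes were MMP1, MMP7, MMP9, MMP13, MMP14, MMP19, MMP20, ADAM2, ADAM12, ADAM23, ADAMTS4, SERPINA7, SERPINA14, SERPINB9, SERPINC1, SERPINI2 and SPINK1. Their means ran from 2.66 to 4.27 and no cow exceeded 4.72 in any of them, so no direction is read from them. They include the collagenases MMP1 and MMP13, the gelatinase MMP9, and MMP14, which activates other MMPs at the cell surface. MMP2, CTSD, CSTB and TFPI were not analysed here.

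Because probe sets differ in how strongly they hybridise, levels are given gene by gene and no gene is ranked against another. Among proteases, CTSS, which trims the invariant chain for antigen presentation, averaged 9.83, and CTSB, a broad lysosomal protease, averaged 9.17. CTSZ averaged 8.62, CTSV 8.45 and CTSC 8.40. Among inhibitors, CST3, the secreted cystatin C, averaged 10.25, and TFPI2, a Kunitz-type inhibitor of plasmin held in the matrix, averaged 9.00. TIMP2 averaged 7.98, TIMP3 7.79 and SERPINB6, an inhibitor inside cells, 7.63.

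**Figure D1:**
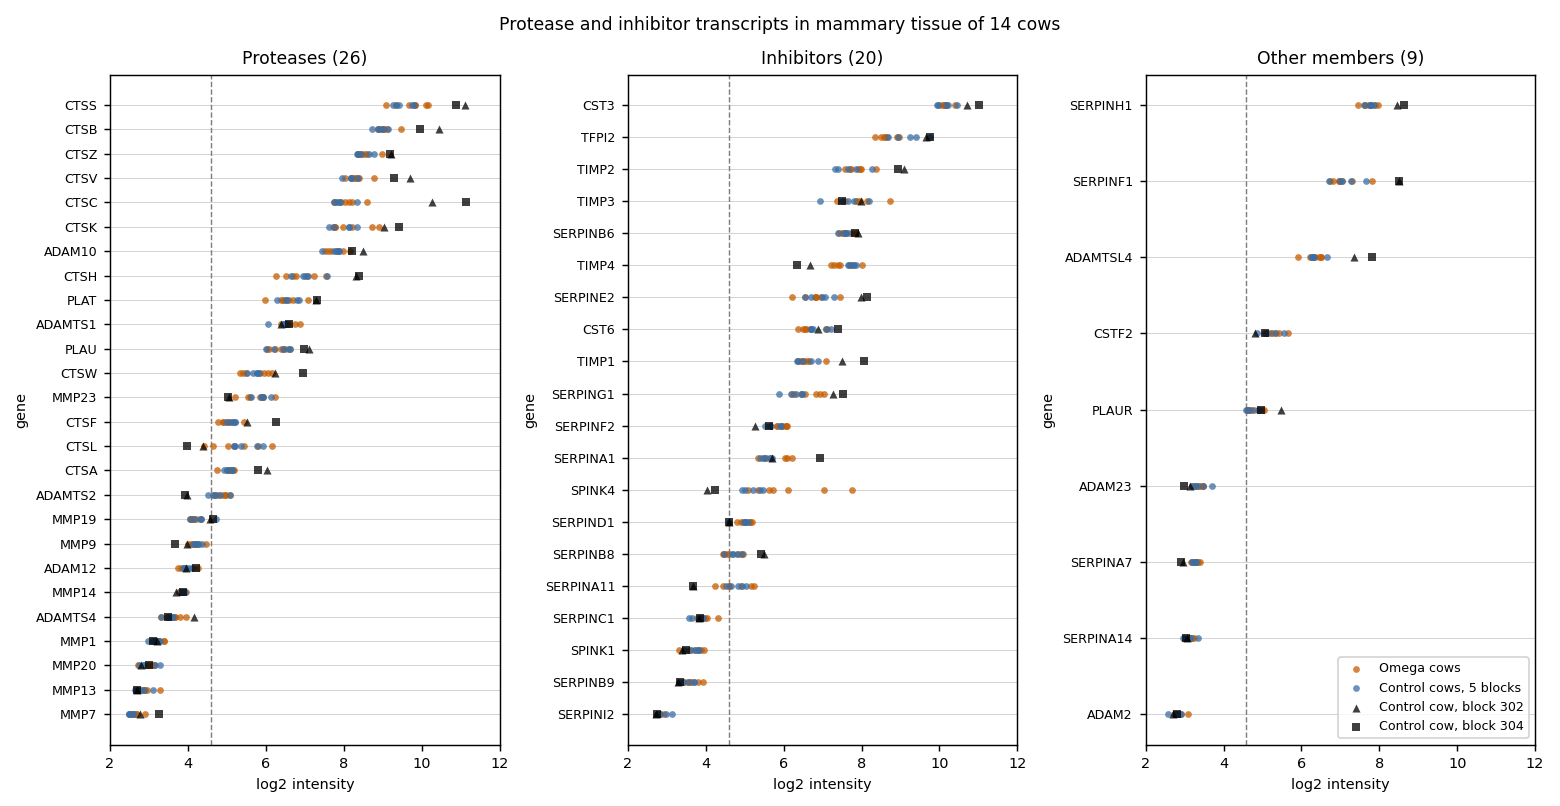
Log2 intensity (horizontal axis) of 55 of the 56 genes in each cow, by class, sorted by mean for layout only. Orange points are Omega cows, blue points the 5 Control cows of the other blocks, black marks the Control cows of blocks 302 and 304, and the dashed line is the filter at 4.59: 17 genes have their mean left of it.

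Spread between cows was wider among the 39 tested genes than across the array, and narrower when those Control cows were left out. The median SD over the 14 cows was 0.42 for these genes (0.38 for proteases, 0.43 for inhibitors), beside 0.23 for all tested probe sets. Over the other 12 cows the medians were 0.24 (0.23 and 0.29), beside 0.19. An SD above 0.4 was found for 20 of the 39 genes over the 14 cows and for 5 over the 12. The widest were CTSC, dipeptidyl peptidase I, which activates granule proteases of leukocytes (SD 1.02), SPINK4, a Kazal-type inhibitor known from human intestine (0.98), CTSL (0.64), the aminopeptidase CTSH (0.63), SERPINF1 (0.60) and CTSS (0.59), all with n = 14.

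In the Control cows of blocks 302 and 304, most cathepsins lay above the range of the other cows. These values are a description with no test, because the cows were set apart by their position over the same arrays. CTSC read 10.26 in Control cow 302 and 11.13 in Control cow 304, against 7.75 to 8.58 in the other 12 cows. CTSB read 10.45 and 9.97, against 8.74 to 9.46. CTSS read 11.12 and 10.89, against 9.08 to 10.16. For all of these, both cows were above every other cow, Omega or Control. The same held for 10 of the 11 cathepsins, the exception being CTSL, which read 4.38 and 3.98, against 4.41 to 6.16, and so was below all others.

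Counting across the classes, both cows were above all others in 22 of the 39 genes (13 of 17 proteases, 6 of 17 inhibitors and 3 of 5 others), beside 21.7% of all probe sets. Both were below all others in 7 (the proteases CTSL, MMP23 and ADAMTS2 and the inhibitors SERPINA11, SERPIND1, SPINK4 and TIMP4), beside 15.5%. In both cows CTSL, ADAMTS2, SERPINA11 and SPINK4 read under the filter at 4.59, SERPIND1 was about at it, and MMP23 and TIMP4 were above it. PLAU read 7.11 and 6.99, against 5.99 to 6.63, and PLAT read 7.30 and 7.32, against 5.97 to 7.07, so both plasminogen activators were among those above. The TIMPs split: TIMP1 read 7.50 and 8.07, against 6.33 to 7.09, and TIMP2 read 9.08 and 8.94, against 7.32 to 8.37. TIMP4 read 6.68 and 6.35, against 7.22 to 8.01, and TIMP3 lay within the range of the others.

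Mean levels of the macrophage and monocyte, luminal epithelium and myoepithelium marker lists also lay above the range of the other cows in both Control cows. Those of the endothelium and lymphocyte lists did so in only 1 of them. The means take in dim genes: 1 of 5 adipocyte, 3 of 8 neutrophil and 7 of 10 macrophage and monocyte markers passed the filter. In each of the other lists most genes passed. The adipocyte and neutrophil values thus rest mostly on dim genes, and no direction is read from them. The mean log2 level of 10 macrophage and monocyte markers was 5.85 and 5.99, against 5.33 to 5.66 in the other 12 cows. That of 8 neutrophil markers was 4.49 and 5.51, against 4.18 to 4.60, so only the cow of block 304 was above the rest. The luminal epithelium list (11 genes) stood at 11.01 and 10.95, against 10.21 to 10.79, and the list of 15 matrix substrates at 7.82 and 7.57, against 6.86 to 7.44. The 6 myoepithelium markers were at 8.94 and 8.78, against 8.03 to 8.53, and the 5 adipocyte markers lay below the others, at 5.32 and 5.11, against 5.38 to 5.60. Endothelium (9 genes, 5.93 and 5.62, against 5.57 to 5.85) and lymphocyte markers (9 genes, 5.94 and 6.36, against 5.71 to 6.00) were above the range in 1 of the cows. These list means hide differences between genes, seen in Omega minus Control with all blocks and without blocks 302 and 304. Among luminal genes KRT8 had −0.77 and −0.028, CSN3 0.0026 and 0.020, and CLDN3 0.14 and −0.049. Among macrophage and monocyte genes C1QA had −0.41 and 0.050, and MSR1 0.27 and −0.095. The part of these markers, or of the lower poly-A spikes, in the protease values was not tested.

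**Figure D2:**
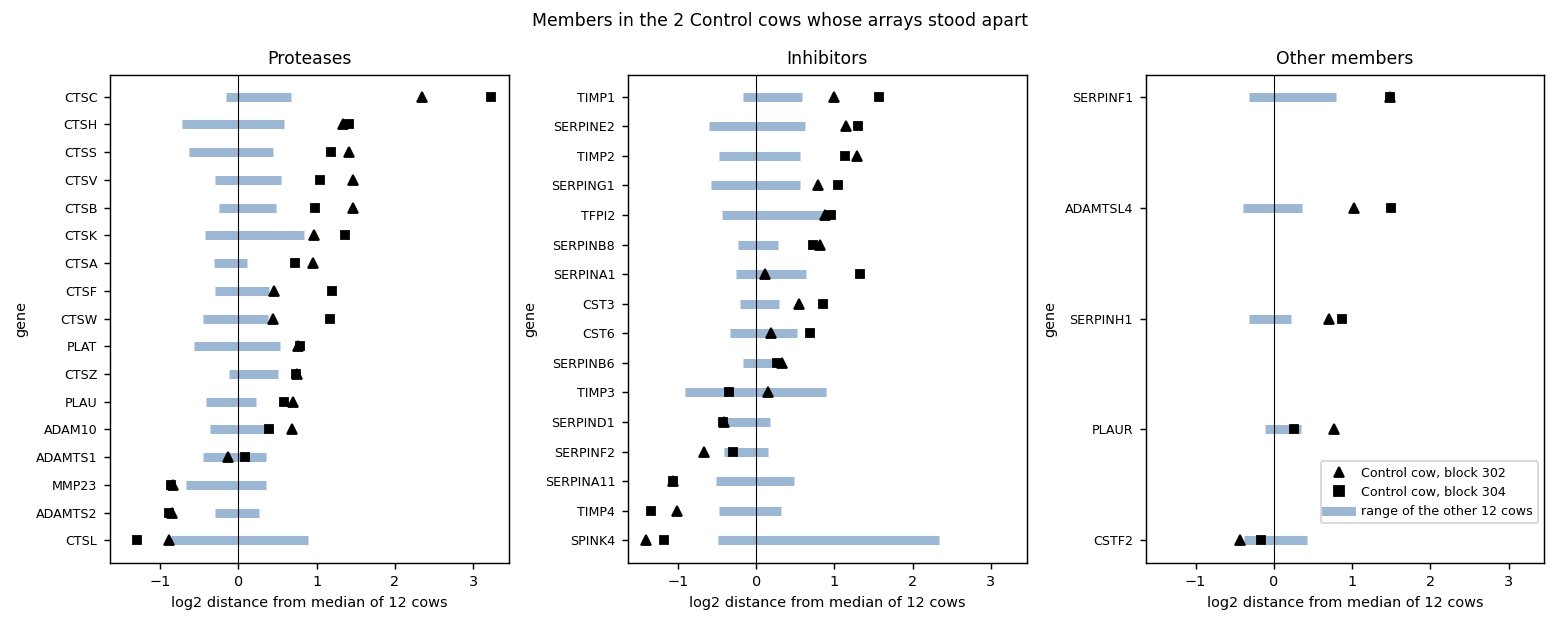
Log2 distance of 38 tested genes (horizontal axis) from the median of the 12 other cows, for the Control cows of blocks 302 (triangles) and 304 (squares); bars give the range of the 12. Both marks lie right of the bar for 22 genes, 10 of them cathepsins, and left of it for 7.

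The diet comparison asked whether linseed changed these transcripts within blocks. No protease and no inhibitor passed the adjusted threshold. Among the differences with the smallest p, TFPI2 was lower in the Omega cow of every block and SPINK4 was higher in 6 of 7. The median of the proteases lay below 0 (median difference −0.22, 4 above 0 and 13 below), whereas the inhibitors were split (−0.01, 8 above and 9 below). All probe sets had a median of −0.03, with 43.1% above 0 and 56.9% below. Without blocks 302 and 304, the protease median was 0.03 (9 higher and 8 lower) and the inhibitor median 0.03 (10 higher and 7 lower). All 7518 probe sets then had a median of −0.012 (3487 higher and 4031 lower).

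With limma and block as a fixed effect, 0 of 39 genes had an adjusted p under 0.05, beside 0.0% of 7518 probe sets, with 0.447 as the lowest adjusted p of any member. Before adjustment, 8 of 39 had p under 0.05 (4 higher, 4 lower), beside 11.0% of all probe sets (3.78% higher, 7.22% lower). These were 3 of 17 proteases (ADAMTS2 higher, CTSF and PLAT lower) and 5 of 17 inhibitors (SPINK4, SERPINF2 and TIMP3 higher, TFPI2 and SERPINE2 lower). ADAMTS2 and SERPINA11 (also above 0) had Control means under the filter at 4.59, so both were tested only through their Omega values. Without blocks 302 and 304 the count was 6 of 39, beside 6.6% (189 higher and 307 lower of 7518 probe sets). These were SPINK4, SERPINF2, SERPING1 and CTSS, all higher, and TFPI2 and TIMP4, both lower. CTSS had 0.34 there after −0.22 with all blocks, TIMP4 −0.34 after 0.14, and SERPING1 0.37 after 0.026. SPINK4, TFPI2 and CTSC differed by more than 1.5-fold, 3 of 39, beside 1.46% of probe sets. The Omega and Control ranges overlapped for all 39 genes, beside 0.186% of probe sets whose ranges did not. The median half-width of the 95% confidence interval was 0.37, which is 1.29-fold to either side of the estimate for a typical member.

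TFPI2 had 8.36, 8.61 and 8.97 in Omega cows (lowest, median, highest), against 8.68, 9.40 and 9.75 in Control cows. Omega cows were the lower of the pair in 7 of 7 blocks, though the Control cows of blocks 306 (8.94) and 308 (8.68) lay within the Omega range. The means were 8.65 ± 0.22 and 9.35 ± 0.42 (SD, n = 7 each), a difference of −0.69 (95% interval −0.99 to −0.40; limma adjusted p = 0.447), or 0.618-fold. The exact two-sided sign-flip test over blocks gave p = 0.0156, the smallest that 7 blocks can give. TFPI2 was the 1 member of 39 with the same sign in all blocks, beside 3.56% of probe sets, and its difference was −0.61 without blocks 302 and 304.

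SPINK4 had 5.09, 5.72 and 7.76 in Omega cows, against 4.02, 5.01 and 5.47 in Control cows. Most Omega cows were above their block partner, but the groups overlapped at their inner ends. The means were 6.10 ± 0.97 and 4.90 ± 0.56 (SD, n = 7 each), a difference of 1.20 (0.49 to 1.92; limma adjusted p = 0.447), or 2.30-fold. The exact sign-flip p was 0.0312, and the difference was 0.99 without blocks 302 and 304.

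The next inhibitors by p had smaller differences. SERPINF2, the α2-antiplasmin of blood, had 5.82, 5.97 and 6.08 in Omega cows, against 5.26, 5.66 and 5.94 in Control cows. Its difference was 0.31 (0.08 to 0.54; limma adjusted p = 0.447), higher in 6 of 7 Omega cows with overlap, and 0.25 without blocks 302 and 304. SERPINE2, which blocks thrombin and plasminogen activators, had 6.23, 6.83 and 7.46 in Omega cows, against 6.56, 7.06 and 8.13 in Control cows. Only 1 of 7 Omega cows exceeded its partner, the ranges overlapped widely, and the difference of −0.44 (−0.80 to −0.07; limma adjusted p = 0.447) was −0.24 without those blocks.

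The 4 TIMPs differed in sign. TIMP3, which binds matrix and also blocks ADAM and ADAMTS enzymes, had 7.38, 7.88 and 8.72 in Omega cows, against 6.92, 7.64 and 8.20 in Control cows, higher in 6 of 7 blocks but overlapping. Its difference was 0.28 (0.03 to 0.53; limma adjusted p = 0.447), and 0.15 without blocks 302 and 304. TIMP1 had a difference of −0.32 (limma adjusted p = 0.505), and −0.02 without those blocks. For TIMP2 the difference was −0.18 (limma adjusted p = 0.725) and for TIMP4 it was 0.14 (limma adjusted p = 0.802), and both turned sign without those blocks, to 0.16 and −0.34.

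Among plasminogen activators, PLAT had 5.97, 6.48 and 7.07 in Omega cows, against 6.29, 6.79 and 7.32 in Control cows. The Omega cow was higher in 1 of 7 blocks, and the ranges shared most of their span. The difference was −0.28 (−0.54 to −0.03; limma adjusted p = 0.447; exact sign-flip p = 0.0469), and −0.18 without blocks 302 and 304. PLAU differed by −0.24 (limma adjusted p = 0.488), and by −0.13 without those blocks. PLAUR, the cell-surface receptor of PLAU, differed by −0.11 (limma adjusted p = 0.604), and by 0.0038 without those blocks.

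Of the remaining proteases, ADAMTS2, which removes the amino-terminal propeptide of procollagen, had 4.66, 4.90 and 5.07 in Omega cows, against 3.92, 4.63 and 5.08 in Control cows. Its Control mean lay under the filter at 4.59, so it was tested only through its Omega values. Its difference of 0.34 (limma adjusted p = 0.450) was 0.12 without blocks 302 and 304, whose Control cows held the lowest values. CTSF, a lysosomal cysteine protease, had 4.76, 5.04 and 5.44 in Omega cows, against 4.98, 5.21 and 6.25 in Control cows, and its difference of −0.31 (limma adjusted p = 0.447) was −0.15 without them. CTSH differed by −0.55 (−1.15 to 0.05; limma adjusted p = 0.465) and by −0.18 without them. ADAMTSL4 differed by −0.40 (limma adjusted p = 0.467) and by −0.057 without them. CTSC, the widest-spread member, differed by −0.67 (−1.73 to 0.39; limma adjusted p = 0.547) and by 0.21 without them, so its direction followed the same cows.

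**Figure D3:**
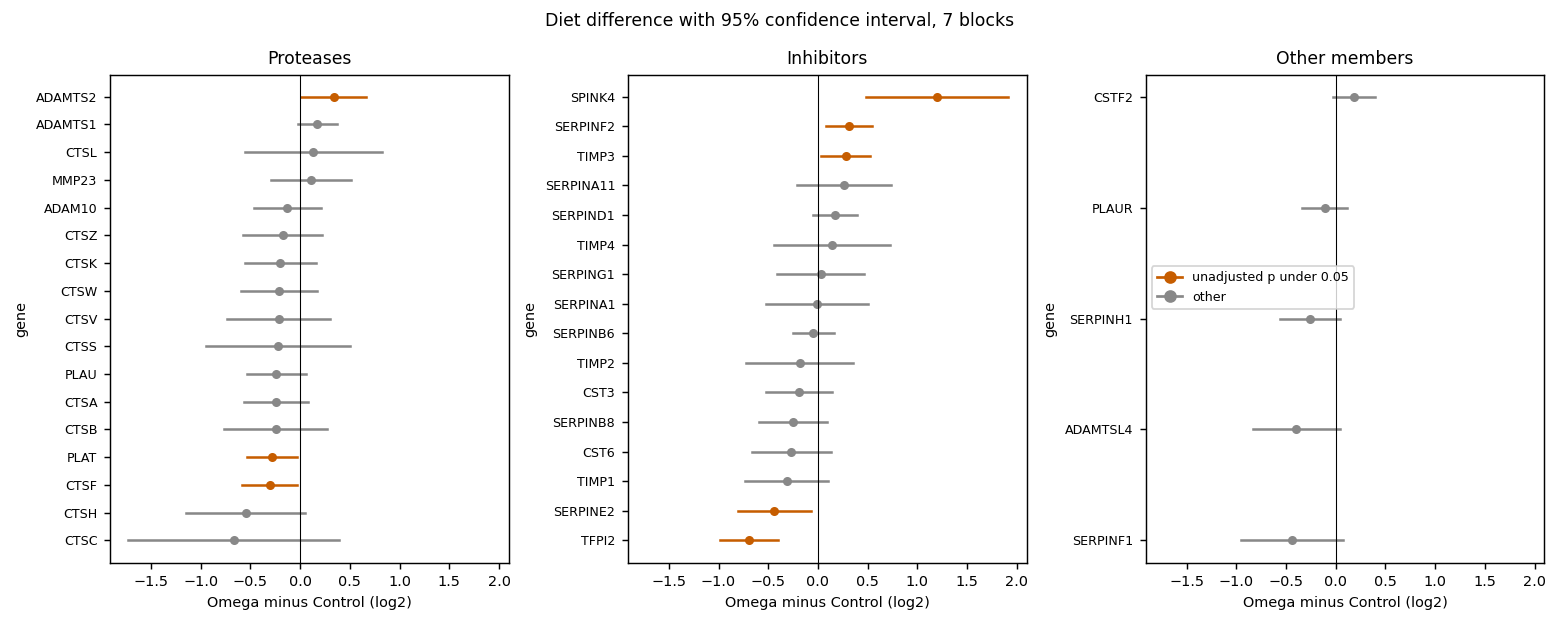
Difference in log2 intensity, Omega minus Control (horizontal axis), for 38 of the 39 tested genes by class, with 95% confidence intervals from limma with block (7 blocks). Orange marks the 8 genes with an unadjusted p under 0.05, and 0 genes passed the adjusted threshold.

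**Figure D4:**
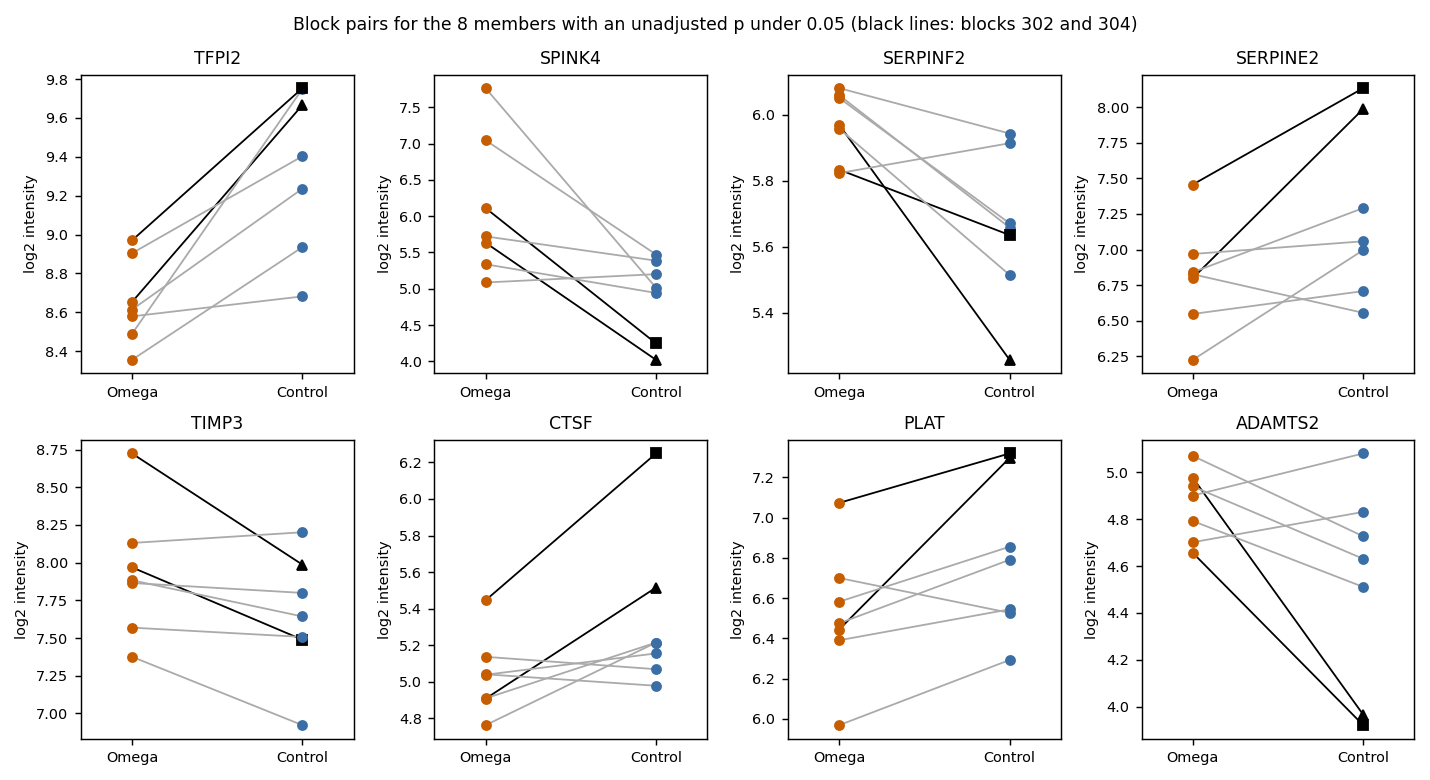
Log2 intensity of the 8 genes with an unadjusted p under 0.05 in the Omega cow (left) and the Control cow (right) of each block, joined by lines; black lines are blocks 302 and 304. All 7 TFPI2 lines go up toward the Control cow, and 6 of 7 SPINK4 lines go down.

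Genes of related function were read from lists of their own. Of the proteases outside the naming rule, 10 were tested (6 higher, 4 lower) and 0 had an unadjusted p under 0.05, beside 11.0% of all probe sets. The 3 with the smallest p were PRSS23 (0.45, and 0.34 without blocks 302 and 304), CAPN2 (−0.20, and −0.13 without them) and LGMN (−0.22, and −0.030 without them). Of 7 inhibitors outside the rule 5 were below 0, beside 56.9% of all probe sets. Without blocks 302 and 304, 3 were, beside 4031 of 7518 probe sets. Of the 5 below 0 with all blocks, 2 had an unadjusted p under 0.05, beside 7.22% of all probe sets. These were the general protease trap A2M (−0.62, and −0.35 without those blocks) and APP (−0.46, and −0.24 without them), whose longer forms carry a Kunitz domain. CAST, the calpain inhibitor, differed by −0.30, and by −0.038 without them. The 12 tested matrix substrates had a median of −0.21 (−0.11 without those blocks). Among them 1 was lower at an unadjusted p under 0.05, beside 7.22% of all probe sets: DCN (−0.50, and −0.23 without those blocks). Of the 10 uptake and cell-surface partners 8 were below 0, beside 56.9% of all probe sets. Without blocks 302 and 304, 6 were, beside 4031 of 7518 probe sets. Of the 8 below 0 with all blocks, 2 had an unadjusted p under 0.05, beside 7.22% of all probe sets. They were ITGB5 (−0.48, and −0.37 without those blocks) and the lysosomal sorting receptor M6PR (−0.20, and −0.11 without those blocks). None of these genes passed the adjusted threshold in limma. Macrophage marker level overlapped between diets, at 5.43 to 5.66 in Omega cows and 5.33 to 5.99 in Control cows, and its part in the diet differences was not tested.

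The parity comparison set the 4 cows with label 1 against the 10 with higher labels, with diet in the model and block as a random effect. No member passed the adjusted threshold. Most proteases had a slightly higher mean in cows with label 1 (median 0.11, 13 higher and 4 lower), while inhibitors were split (−0.04, 8 higher and 9 lower), beside a median of 0.02 for all probe sets, 55.7% of them above 0 and 44.3% below. Without the Control cows of blocks 302 and 304 the medians were 0.03 and −0.01, beside 0.010 for all probe sets. Without block 302 as a whole the protease median was −0.016 (7 higher, 10 lower), so its direction turned, beside 0.0065 for all probe sets. In limma 0 of 39 had an unadjusted p under 0.05, beside 2.19% of probe sets (1.26% higher, 0.931% lower), and the smallest adjusted p was 0.983. Previous milk yield did not overlap between the parity classes, so parity and yield cannot be told apart.

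The member with the smallest p for parity was TIMP3. It had 7.80, 7.93 and 8.72 in cows with label 1 (lowest, median, highest), against 6.92, 7.61 and 8.20 in the others, with overlap. Its means were 8.09 ± 0.43 (SD, n = 4) and 7.67 ± 0.39 (SD, n = 10), a difference of 0.42 (−0.02 to 0.87; limma adjusted p = 0.983). It was 0.42 without the 2 Control cows, and 0.16 (without block 302) to 0.69 (without block 306) with 1 block left out. SPINK4 averaged 4.98 ± 0.70 in cows with label 1 and 5.71 ± 1.03 in the others, a difference of −0.72 (−1.57 to 0.13).

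CTSB averaged 9.48 ± 0.69 in cows with label 1 and 9.05 ± 0.34 in the others, a difference of 0.43 that was 0.19 without the 2 Control cows. CTSV averaged 8.74 ± 0.70 and 8.33 ± 0.37, a difference of 0.41 that was 0.18 without them. PLAU differed by 0.23 and SERPIND1, heparin cofactor II, by −0.16, and the limma adjusted p of all these was 0.983. With the label as a number in the model, 12 of 39 had an unadjusted p under 0.05 (8 proteases, 4 inhibitors), beside 23.2% of probe sets. Without the 2 Control cows, whose labels were 1 and 2, it was 1 of 39, SERPIND1, beside 4.97%.

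Covariation was measured across the 12 cows other than the Control cows of blocks 302 and 304, because those form a cluster of their own. Of 25 protease and inhibitor pairs listed from known targets, 9 had both genes tested, and none passed the threshold after adjustment over these 9. CTSS and CST3 had r = 0.57 (permutation p = 0.052, adjusted p = 0.235), and 0.47 without the 2 farthest cows. ADAM10, the sheddase of many surface proteins, and TIMP1 had r = 0.51 (adjusted permutation p = 0.268), and 0.13 without the 2 farthest cows. ADAMTS1 and TIMP3 had r = 0.44, and −0.12 without the 2 farthest cows. The last pair and that of ADAM10 with TIMP1 thus rest on those cows.

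All 561 pairs among the 34 tested proteases and inhibitors were then computed, a choice made after seeing the data, and 0 passed after adjustment. The pairs with the smallest p were TIMP1 with TIMP2 (r = 0.87, rho = 0.84, adjusted permutation p = 0.0870) and CTSA with CTSZ (r = −0.89, rho = −0.88, adjusted permutation p = 0.0870). Without the 2 farthest cows they were 0.69 and −0.72. CTSV with MMP23 had r = −0.84 (adjusted permutation p = 0.196). The median r was 0.12 between proteases, 0.05 between inhibitors and 0.12 across the classes, beside 0.0042 for all tested probe sets. Over all 14 cows these were 0.61, 0.01 and 0.26, beside 0.0092.

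**Figure D5:**
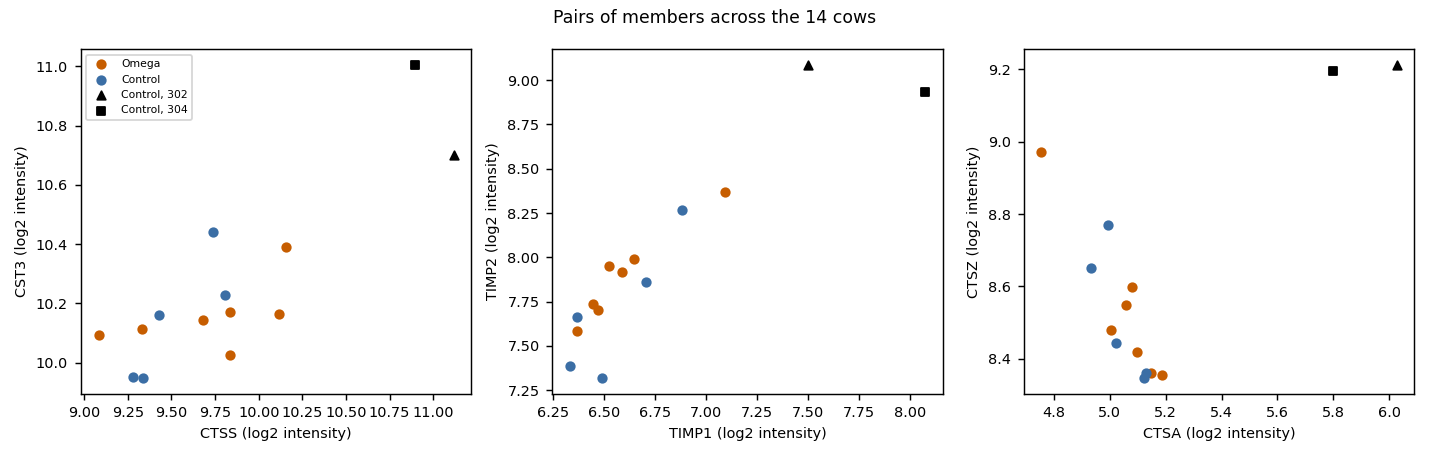
Log2 intensity of 3 pairs of genes in each cow (orange Omega, blue Control, black triangle and square the Control cows of blocks 302 and 304). Over the 12 other cows CTSS with CST3 (0.57) and TIMP1 with TIMP2 (0.87) have positive r, and CTSA with CTSZ (−0.89) run opposite ways, with the black marks away from that line.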

How the data were processed

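Mammary RNA of 14 cows was hybridised to an Affymetrix bovine array. The deposited table holds log2 intensity values, 1 per probe set and cow, and the submitters' processing notes name RMA and GCRMA without saying which made them, while no other step is given in the sources used here. Of 10852 probe sets, 112 were controls and 10740 carried RefSeq accessions, 6749 of which matched a symbol in RefSeq's gene table (ARS-UCD2.0, names only). The 7518 probe sets with a mean above 4.59 were fitted with limma 3.58.1 in R 4.3.3 (lmFit, eBayes, Benjamini-Hochberg over all of them). Diet was fitted with block fixed, and parity with diet fixed and block random (consensus correlation 0.0369). Pairing follows the block labels, although partners' deviations correlated only from −0.47 to 0.32. Single genes had exact sign-flip tests, and correlations permutation tests (100000 resamples). On simulated data for the diet fit, 50 probe sets per size among 7518, 56% of 0.5 log2 changes and 90% of 1 log2 changes were recovered. For parity these were 46% and 84%. The simulated noise was independent, with no block effects, no correlated probe sets and no cows set apart. Its spread came from the diet fit with block fixed, for parity too, which leaves out spread between blocks. The rates therefore need not hold for the real arrays.

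Genes named are those with the highest mean (5 per class), the smallest p (10 for diet, 6 for parity, 4 pairs, 3 per other list), the largest SD (6), and the PLAU, TIMP and TFPI families; CTSC and SERPING1 for diet, pairs outside the list, and the genes counted in the 2 Control cows were added after their values were seen. Members and lists were chosen with earlier results of these data known. The number of arrays limits precision. Alternatives covered the block, filter, normalization, array weights, variance model and cows left out. The values of 1 member are not reported here, though it stays in the fits and counts.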

Additional observations from a re-analysis of the deposited data

Results flagged for a closer look

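In 18 of 108 groups checked (27 genes named here, each in both diets and both parity classes), 1 cow lay far from the next by Dixon's criterion, and chance alone gives about 1 in 20. The share was 16.7% for these genes, against 8.38% of such groups over all tested probe sets, and some of these genes were named for their large SD. The Control cow of block 304 was that cow among the higher parity labels for CTSC (11.13), CST3 (11.00), CTSS (10.89), CTSB (9.97), CTSV (9.29), TIMP1 (8.07), ADAMTSL4 (7.81) and CTSF (6.25, also the far value among Control cows), all high, and for TIMP4 (6.35) and ADAMTS2 (3.92), both low. The Control cow of block 302 was the far one for ADAMTSL4 in label 1 cows (7.34) and for PLAUR among Control cows (5.47).

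Other cows were also far from the rest. The Omega cow of block 306 was high for CST3 (10.39) and CTSB (9.46), that of block 308 for CTSZ (8.97), and that of block 304 for TIMP1 (7.09). The Control cow of block 308 was low for ADAMTS1 (6.05). No cause was tested for any of these.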

How the results depend on the processing

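At the adjusted threshold, no setting called a member for diet or parity. The count of members with an unadjusted p under 0.05 for diet, 8 with the block, was 3 with no replicate block (beside 10.5% of all probe sets), 5 of the 27 left by the stricter filter (11.1%), 4 by the exact sign-flip test (10.2%), and 3 to 12 when a block was left out (3 without 302, beside 7.93%, 3 without 304, beside 5.84%, 5 without 305, beside 8.66%, 12 without 306, beside 16.4%). For parity, 0 became 12 with the label as a number (23.2%), 1 with that and without the 2 Control cows (4.97%), and 0 to 8 when a block was left out (1 without 303 or 305, beside 1.54% and 1.37%, 8 without 304, beside 14.7%, 3 without 306, beside 2.7%). The median parity difference ran from −0.016 (without 302) to 0.24 for proteases and −0.060 to 0.12 for inhibitors with 1 block left out. Over all 14 cows 5 of 9 listed pairs passed, against 0 over 12. The causes were not tested. For diet, 13 of the 39 genes were above 0 and 26 below, against 21 above and 18 below without blocks 302 and 304. Genes that turned there included CTSB (−0.25 to 0.16), CTSS (−0.22 to 0.34), CTSV (−0.22 to 0.17), CST3 (−0.19 to 0.028), CTSL (0.13 to −0.19) and MMP23 (0.11 to −0.11). Signs also turned for TIMP4 in diet (−0.12 with array weights, −0.34 without blocks 302 and 304, −0.056 without 302 and −0.060 without 304, up to 0.25 with another block left out), TIMP2 in diet (0.16 without both, −0.32 to 0.038 with 1 block left out), PLAUR in diet (0.0038 without both) and PLAU in parity (−0.016 to 0.48 with 1 block left out, negative without 302). Pairs that turned were CTSL with CST3 (−0.48) over 14 cows, and PLAU with SERPINE2 (−0.055) and ADAMTS1 with TIMP3 (−0.090) in Omega cows. Without the 2 farthest cows, CTSB with CST3 turned to −0.22 and ADAMTS1 with TIMP3 to −0.12. Correlations in Control cows alone were not run, with fewer than 6 left. Dim probe sets limit what can be said of MMPs.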
